A study of Mus musculus with 16 samples.

Results

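The genes described are 10 core genes of the circadian clock, Ciart, Per1, Per2, Per3, Cry1, Cry2, Nr1d1, Nr1d2, Dbp and Arntl, chosen by name out of 45616 genes and features on a one-colour mouse expression array. All 10 were on the array, through 18 probes, and all 10 were among the 26477 genes and features bright enough to be tested. The study measured total RNA from the brains of C57BL/6 pups on postnatal day 1, with 4 pups and 4 arrays per group. The irradiated group descended from freeze-dried sperm exposed to 5 Gy of X-rays, the heated group from freeze-dried sperm kept at 95 °C for 1 h, the freeze-dried group from freeze-dried sperm with neither exposure, and the fresh group from sperm that had not been dried. The exposures were thus given to the fathers' sperm and not to the pups. The labels number the neonates but give neither the litter nor the hour of dissection, so pups of a group may be littermates and the p-values then measure the spread between these pups only.

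The circadian clock is a feedback loop of transcription. The activators ARNTL (also called BMAL1) and CLOCK bind E-box sequences and switch on the Per and Cry genes, Ciart, Dbp and the Nr1d genes, and the PER, CRY and CIART proteins then repress the activators. REV-ERB-alpha and REV-ERB-beta, the products of Nr1d1 and Nr1d2, repress Arntl through ROR elements, while DBP activates genes with D-boxes. In the adult brain the suprachiasmatic nucleus of the hypothalamus is the master oscillator, and other regions carry weaker clocks that follow it, so that a level of any of these genes depends on the hour at which the tissue is taken.

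The promoters of the genes whose levels differed, and of those with the D-box and the ROR element, are shown because they hold words these factors are known to bind; a match is a description of the letters and not evidence of binding. RefSeq promoter windows (assembly GRCm38.p6, 250 bases before to 50 bases after a start of the gene) were held for 9 of the 10 genes, and Per2 had none. These 9 genes had 11 windows, so a start is that of the window and need not be the gene's outermost one. The 250 bases before the start of Ciart lie at chr3:95882229-95882478 on the minus strand, and capitals mark the E-box CACGTG.
Ciart: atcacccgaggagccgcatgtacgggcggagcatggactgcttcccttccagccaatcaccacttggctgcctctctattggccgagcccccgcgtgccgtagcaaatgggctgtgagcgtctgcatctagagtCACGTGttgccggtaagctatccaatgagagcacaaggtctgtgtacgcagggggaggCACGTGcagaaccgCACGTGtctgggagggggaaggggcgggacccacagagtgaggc
The corresponding stretch of Nr1d1 lies at chr11:98775378-98775627 on the minus strand, and capitals mark the variant E-box CACGTT, which here reads on the opposite strand.
Nr1d1: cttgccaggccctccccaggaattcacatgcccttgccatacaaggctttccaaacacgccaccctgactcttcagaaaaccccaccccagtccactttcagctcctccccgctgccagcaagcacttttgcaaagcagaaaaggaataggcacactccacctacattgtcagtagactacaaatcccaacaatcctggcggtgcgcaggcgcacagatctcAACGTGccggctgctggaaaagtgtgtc
That of Per3 lies at chr4:151044666-151044915 on the minus strand, and capitals mark the D-box TTATGTAA.
Per3: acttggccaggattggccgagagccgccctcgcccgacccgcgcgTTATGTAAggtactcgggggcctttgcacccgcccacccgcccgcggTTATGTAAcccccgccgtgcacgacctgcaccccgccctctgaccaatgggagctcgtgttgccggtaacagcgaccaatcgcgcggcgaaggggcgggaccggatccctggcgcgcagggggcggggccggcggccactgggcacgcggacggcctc
The ROR element of Arntl (GGTCA preceded by AANTN), in capitals, is shown with its flanks at chr7:113207528-113207557 on the plus strand. It begins 27 bases after a start that lies inside the gene (chr7:113178471-113314126).
Arntl: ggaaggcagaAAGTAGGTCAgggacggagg
The letters were searched on both strands, and the matches in these genes did not overlap each other. Ciart held 3 E-boxes, beginning 116, 58 and 44 bases before its start; 3 or more occurred in 29 of 32851 windows of all genes (0.0883%), and at least 1 occurred in 7.15%. Cry1 held 1 E-box 60 bases before its start. Per1 held 1 E-box, at chr11:69098783-69098788, 166 bases before a start that lies inside the gene (chr11:69095108-69109965). The variant CACGTT, present in 4.68% of all windows, lay 28 bases before the start of Nr1d1, 166 before that of Cry2 and 79 before that of Cry1. The D-box, present in 0.938% of windows, occurred in Per3 at 205 and 158 bases before the start, and the ROR element, present in 0.606%, only in Arntl among the 9 genes. The windows of Dbp and Nr1d2 held none of these 4 words.

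Each array carried 62976 spots, of which 3671 were controls, and the scanner's software called 59.9% to 66.1% of an array's spots well above background. Levels are given as log2 of the processed signal relative to the 75th percentile of the same array, which lay between 1043 and 1412 signal units, so that 0 is the level of a fairly bright probe and each unit is a doubling. A gene is represented by its brightest probe, which exceeded background clearly on every one of the 16 arrays for each of the 10 genes. Levels of different genes cannot be set against each other, because each probe has its own brightness. The arrays lay on 2 slides, slide 1 with irradiated 1 and 2, the 4 freeze-dried pups and fresh 1 and 2, and slide 2 with irradiated 3 and 4, the 4 heated pups and fresh 3 and 4. Means of 4 groups were fitted to all 16 arrays with limma. A difference is called where its Benjamini-Hochberg adjusted p, taken over all 26477 features, is under 0.05. The summed level of 4 neuronal markers was high in every brain, 109 to 125 times the 75th percentile. The 6 hindbrain Hox genes were nearly missing in 4 dissections, heated 2 and 4, freeze-dried 2 and fresh 2, with a mean level of -7.54 to -5.98 against -3.64 to -1.52 in the other 12, and results are therefore also given without these 4 arrays. Of these, heated 2 and 4 were also low in the Purkinje cell gene Pcp2, at -3.11 and -4.29 against 0.25 to 0.68 in the other 14, with summed cerebellar markers of 4.93 and 4.62 against 5.62 to 7.37. The muscle gene Acta1 was high in fresh 1 only (1.21, against -2.13 to -1.64 elsewhere), and the skin gene Krt14 in freeze-dried 2 only (1.91, against -4.29 to -3.62). The pituitary gene Pomc was high in heated 1, freeze-dried 1 and fresh 3, at 5.87, 4.85 and 5.13 times the 75th percentile, against 0.316 to 0.437 in the other 13, the irradiated pups included. The part of these dissection differences in the clock gene levels was not tested beyond the fits with arrays left out.

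Of the 10 clock genes, 3 passed in at least 1 comparison between groups: Ciart was higher in heated pups than in freeze-dried and fresh pups, and Nr1d1 was higher and Per2 lower in irradiated than in fresh pups. Over the 4 groups at once (limma's F test), Ciart (adjusted p = 0.0189) and Nr1d1 (0.0457) passed, as did 3.32% of all features. Between heated and freeze-dried pups 1 of the 10 genes was called, beside 4.11% of all features tested. Irradiated against fresh pups gave 2 of 10, beside 1.46%, and heated against fresh pups 1 of 10, beside 2.9%. No clock gene was called between irradiated and heated pups, where 1.09% of all features were. Freeze-dried against fresh pups and irradiated against freeze-dried pups gave 0 of 10, and 0% of all features were called in either by limma. At an unadjusted p under 0.05 the 10 genes numbered 0 in freeze-dried against fresh pups (9.72% of all features) and 3 in irradiated against freeze-dried pups (7.24%). The corresponding numbers were 5 in heated against freeze-dried (24% of all), 3 in irradiated against fresh (16.7%), 4 in heated against fresh (17.8%) and 3 in irradiated against heated pups (13.9%).

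**Figure D1:**
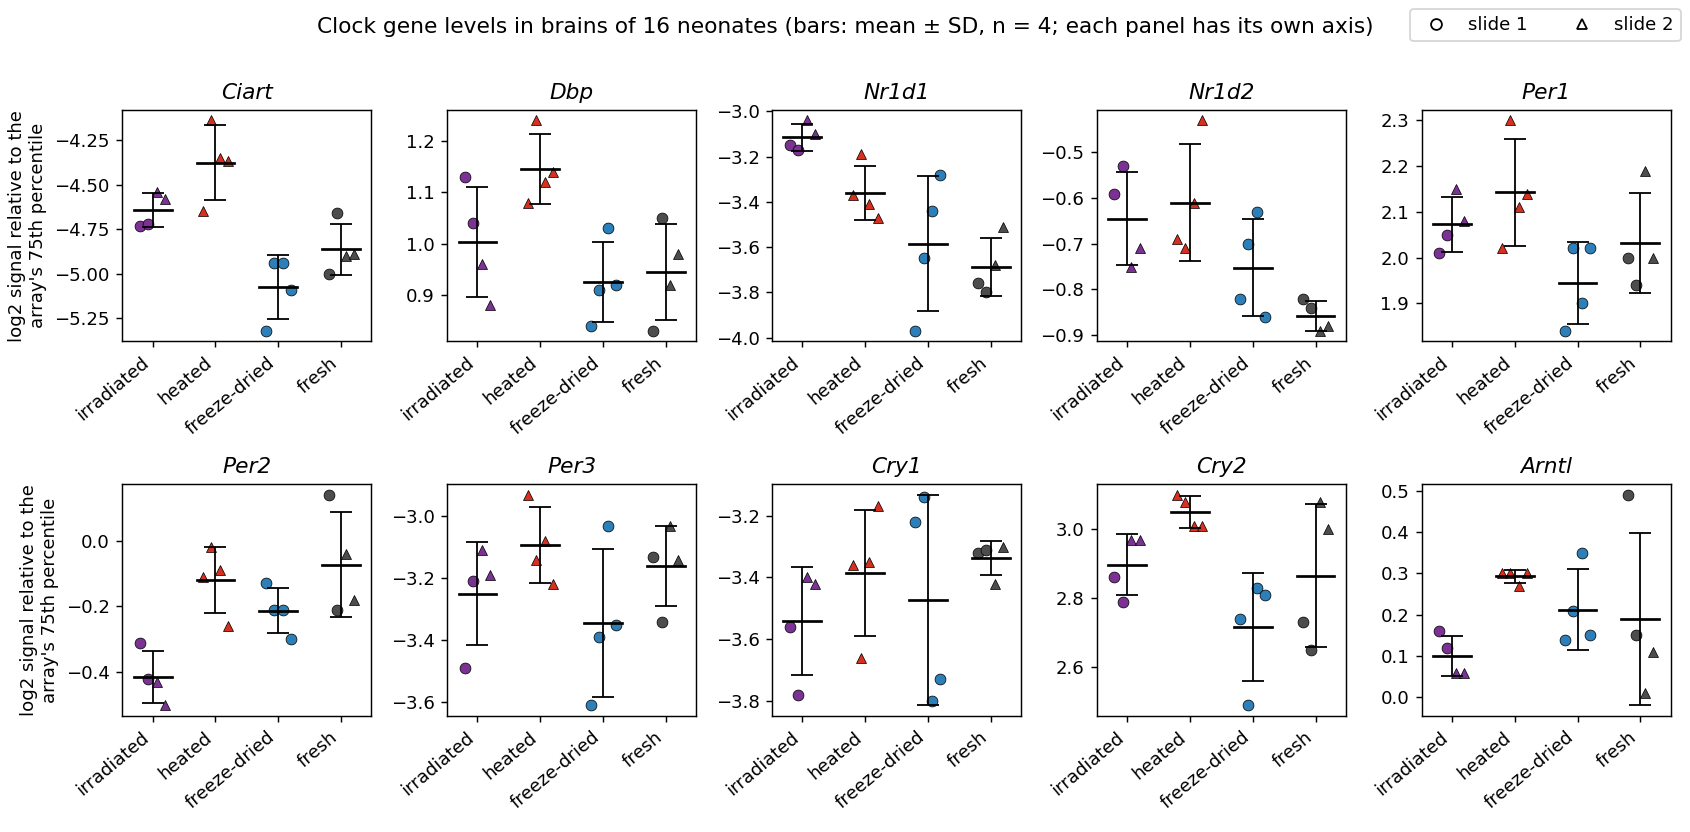
Levels of the 10 clock genes in each of the 16 brains, on the log2 scale relative to the 75th percentile of the array; circles are arrays of slide 1, triangles of slide 2, bars the mean ± SD of 4 pups, and each panel has its own axis. The 4 heated pups lie above all freeze-dried and fresh pups in Ciart, and the 4 irradiated pups lie above all others in Nr1d1 and at or below -0.31 in Per2.

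Ciart encodes CIART (CHRONO), a repressor that binds ARNTL at E-boxes and whose transcript cycles strongly in many tissues. Ciart stood at -4.65, -4.14, -4.35 and -4.37 in the heated pups. It stood at -5.32, -4.94, -4.94 and -5.09 in the freeze-dried pups and at -5.0, -4.66, -4.90 and -4.89 in the fresh pups. Every heated pup thus lay above every freeze-dried pup, and the lowest heated pup lay just above the highest fresh one. The mean was -4.38 ± 0.21 in heated and -5.07 ± 0.18 in freeze-dried pups (SD, n = 4 each), a log2 difference of 0.69 (SE 0.11, 95% interval 0.45 to 0.93) or 1.62-fold, adjusted p = 0.00825. Against the fresh mean of -4.86 ± 0.14 the heated pups were higher by 0.48 (SE 0.11), 1.4-fold, adjusted p = 0.0343. The irradiated pups stood at -4.73, -4.72, -4.54 and -4.58, with a mean of -4.64 ± 0.09 between those of the heated and the fresh group. They exceeded the freeze-dried pups by 0.43 with no overlap, which did not pass (adjusted p = 0.561). In the order heated, irradiated, fresh, freeze-dried no group differed from its neighbour beyond the threshold (limma adjusted p = 0.302, 0.337 and 0.558). RNA from whole brain cannot tell fewer cells of a type from less RNA per cell, which holds for every gene below.

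The Ciart difference between heated and freeze-dried pups passed with any 1 of the 16 arrays left out (0.61 to 0.78, limma adjusted p 0.00639 to 0.0349). However, no slide held both groups, so the heated and freeze-dried arrays alone cannot tell slide and heating apart. With slide as a block, where only the fresh and irradiated pups set the slide term, the difference was 0.64 and did not pass (adjusted p = 0.234). Within slide 2 the heated pups exceeded fresh 3 and 4 by 0.52 (SE 0.14; adjusted p = 0.168). Among fresh pups, slide 2 minus slide 1 was -0.07 (SE 0.16) in Ciart, and among irradiated pups it was 0.16 (SE 0.16). Without the 4 arrays low in hindbrain genes the differences were 0.62 against freeze-dried and 0.43 against fresh pups, and neither passed (adjusted p = 0.141 and 0.264); both heated brains low in Pcp2 are among these 4. The size of the Ciart differences depended on the source of the values: against freeze-dried pups it was 0.45 (0.445, adjusted p = 0.0137) with normexp background correction and 0.38 (adjusted p = 0.999) in the deposited table. Against fresh pups it was 0.28 (0.275, adjusted p = 0.112) with normexp and 0.30 (adjusted p = 0.319) in the deposited table. The call against fresh pups was lost in 5 of 16 fits with 1 array left out, namely without fresh 1, fresh 4 or heated 2, 3 or 4 (0.40 to 0.57 over all 16). A second Ciart probe was not well above background on 15 of 16 arrays and gave no separate measurement.

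Nr1d1 and Nr1d2 encode the nuclear receptors REV-ERB-alpha and REV-ERB-beta, which repress Arntl. Nr1d1 was at -3.15, -3.17, -3.04 and -3.10 in the irradiated pups, against -3.76, -3.80, -3.68 and -3.51 in the fresh pups. These ranges lie far apart, and all irradiated values also exceed every freeze-dried and heated one. The mean was -3.12 ± 0.06 in irradiated and -3.69 ± 0.13 in fresh pups, a log2 difference of 0.57 (SE 0.12, 95% interval 0.32 to 0.83) or 1.49-fold, adjusted p = 0.0369. The same sign appeared on both slides, 0.62 on slide 1 (SE 0.17, adjusted p = 0.0937) and 0.52 on slide 2 (SE 0.17, adjusted p = 0.46), and with slide as a block the difference was 0.57 (adjusted p = 0.0282). Without the 4 arrays low in hindbrain genes it was 0.54 (adjusted p = 0.161), and with normexp background correction 0.36 (0.355, adjusted p = 0.0586). Of the 16 fits with 1 array left out, 7 kept the call (0.54 to 0.63 over all 16), those without fresh 4, freeze-dried 1, 2, 3 or 4, or heated 2 or 4. Heated pups were at -3.37, -3.19, -3.41 and -3.47, and freeze-dried pups spread widely in Nr1d1, at -3.97, -3.65, -3.44 and -3.28. Irradiated pups exceeded the freeze-dried ones by 0.47 (adjusted p = 0.56) and the heated ones by 0.25 (adjusted p = 0.386), neither past the threshold. In the order irradiated, heated, freeze-dried, fresh no neighbours differed beyond the threshold (limma adjusted p = 0.386, 0.269 and 0.801).

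Nr1d2 was at -0.59, -0.53, -0.75 and -0.71 in irradiated pups, at -0.69, -0.71, -0.61 and -0.43 in heated pups, and at -0.82, -0.84, -0.89 and -0.88 in fresh pups. Both treated groups lay wholly above the fresh group, by 0.21 in irradiated (adjusted p = 0.163) and 0.25 in heated pups (adjusted p = 0.0884), without passing. The freeze-dried pups, at -0.82, -0.70, -0.63 and -0.86, overlapped all other groups. A second Nr1d2 probe gave 0.31 for both comparisons with fresh pups. On that probe the lowest heated pup (-1.87) lay below the highest fresh pup (-1.77), so these groups overlapped, while the lowest irradiated pup (-1.71) lay above it. Groups did not overlap in 3 of the 10 genes between irradiated and fresh pups (Nr1d1, Nr1d2 and Per2), where 9.13% of all features did not, and in 4 between heated and fresh pups (Ciart, Nr1d1, Nr1d2 and Dbp), where 11.3% did not.

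The period genes encode the PER repressors. Per2 stood at -0.31, -0.42, -0.43 and -0.50 in the irradiated pups, against 0.14, -0.21, -0.04 and -0.18 in the fresh pups. The ranges do not overlap, and the fresh pups vary more than the irradiated ones. The mean was -0.42 ± 0.08 in irradiated and -0.07 ± 0.16 in fresh pups, a log2 difference of -0.34 (SE 0.08, 95% interval -0.51 to -0.17) or 0.788-fold, adjusted p = 0.0486. It was -0.33 on slide 1 and -0.36 on slide 2 (SE 0.11 each; adjusted p = 0.162 and 0.441), and -0.34 with slide as a block (adjusted p = 0.0372). Of the 16 fits with 1 array left out, 2 kept the call, those without fresh 4 or freeze-dried 1, while the difference ranged from -0.39 to -0.27. It was smallest without fresh 1 (-0.27, adjusted p = 0.089), the brain with muscle signal and the highest in Per2. Without the 4 arrays low in hindbrain genes it was -0.39 (adjusted p = 0.123). Heated pups were at -0.11, -0.02, -0.09 and -0.26, all above the irradiated ones, and the difference of irradiated from heated pups was -0.29 (adjusted p = 0.0987). Freeze-dried pups were at -0.13, -0.21, -0.21 and -0.30, with a mean between those of the heated and the irradiated group. In the order fresh, heated, freeze-dried, irradiated, from high to low, no neighbours differed beyond the threshold (limma adjusted p = 0.78, 0.512 and 0.679). A second Per2 probe was well above background on 2 heated arrays and 1 freeze-dried array and on none of the others, and is not used.

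Per1, which light and stress signals induce rapidly, was at 2.02, 2.30, 2.11 and 2.14 in heated pups, against 1.84, 2.02, 1.90 and 2.02 in freeze-dried pups. The ranges meet at 2.02, and the difference of 0.20 (SE 0.07) did not pass (adjusted p = 0.117). Irradiated and fresh pups averaged 2.07 ± 0.06 and 2.03 ± 0.11, 0.04 apart (adjusted p = 0.844). Per3, the least essential period gene in mice, averaged -3.25 ± 0.17 in irradiated, -3.09 ± 0.12 in heated, -3.34 ± 0.24 in freeze-dried and -3.16 ± 0.13 in fresh pups. These groups overlap in every pair, and the widest gap, 0.25 between heated and freeze-dried pups, had an adjusted p of 0.206. Slide 2 minus slide 1 was 0.15 in fresh and 0.20 in irradiated pups for Per3 (SE 0.16 each). For Per1 it was 0.12 and 0.08 (SE 0.10 each). Within slide 2 heated minus fresh pups gave -0.01 (SE 0.14) in Per3 and 0.05 (SE 0.08) in Per1. Irradiated minus fresh pups gave 0.04 in Per1 and -0.09 in Per3, beside the -0.34 of Per2; whether the period genes differ from each other was not tested.

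Cry1 and Cry2 encode the cryptochromes, the main repressors of the loop. Cry2 stood at 3.10, 3.08, 3.01 and 3.01 in heated pups, against 2.74, 2.49, 2.83 and 2.81 in freeze-dried pups. The groups are well apart, by 0.34 (0.335; SE 0.10), and the adjusted p of 0.0654 did not pass. In this gene the level also moved with the slide: fresh 3 and 4 on slide 2 read 3.08 and 3.00, and fresh 1 and 2 on slide 1 read 2.73 and 2.65, a slide difference of 0.35 (SE 0.10, adjusted p = 0.0737), with 0.14 in irradiated pups. Within slide 2 the heated pups exceeded the fresh ones by 0.01 (SE 0.09), and with slide as a block heated exceeded freeze-dried pups by 0.09 (adjusted p = 0.912). Cry1 averaged -3.54 ± 0.17 in irradiated, -3.39 ± 0.20 in heated, -3.47 ± 0.34 in freeze-dried and -3.34 ± 0.06 in fresh pups, with all ranges overlapping. Its 2 probes went opposite ways in 5 of 6 comparisons, for instance -0.21 and 0.20 in irradiated against fresh pups, and no difference of either passed.

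Dbp, a D-box factor and one of the strongest direct targets of ARNTL and CLOCK, was at 1.08, 1.24, 1.12 and 1.14 in heated pups. It was at 0.84, 0.91, 1.03 and 0.92 in freeze-dried pups and at 0.83, 1.05, 0.92 and 0.98 in fresh pups. The lowest heated pup lay just above the highest freeze-dried and fresh pups, and the differences were 0.21 (SE 0.07, adjusted p = 0.0819) and 0.20 (SE 0.07, adjusted p = 0.139), neither past the threshold. A second Dbp probe gave 0.25 and 0.26. Irradiated pups, at 1.13, 1.04, 0.96 and 0.88, overlapped all groups. Between heated and freeze-dried pups 3 of the 10 genes did not overlap (Ciart, Cry2 and Dbp), beside 21% of all features.

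Arntl, the activator, varied least of the 10 genes within the heated group, at 0.30, 0.30, 0.27 and 0.30, against 0.14, 0.21, 0.35 and 0.15 in freeze-dried pups. It was at 0.16, 0.12, 0.06 and 0.06 in irradiated pups and at 0.49, 0.15, 0.01 and 0.11 in fresh pups, where 1 pup, fresh 1, the brain with muscle signal, stood above the rest. Slide 2 minus slide 1 was -0.26 in fresh pups (SE 0.10, limma adjusted p = 0.162) and -0.075 in irradiated pups (SE 0.10). No difference of Arntl passed: heated exceeded freeze-dried pups by 0.08 (adjusted p = 0.583), and irradiated pups were lower than heated pups by 0.19 without overlap (log2 difference -0.19, adjusted p = 0.331). Of its 2 dimmer probes, both gave larger values for heated against freeze-dried pups, 0.25 (0.253; SE 0.07, adjusted p = 0.0556 over all 34261 probes) and 0.26 (0.255; SE 0.14, adjusted p = 0.294). Groups did not overlap in 4 of the 10 genes between irradiated and heated pups (Nr1d1, Per2, Cry2 and Arntl), beside 13.3% of all features, and in 3 between irradiated and freeze-dried pups (Ciart, Nr1d1 and Per2), beside 4.78%. Between freeze-dried and fresh pups all 10 genes overlapped, where 4.16% of all features did not.

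**Figure D2:**
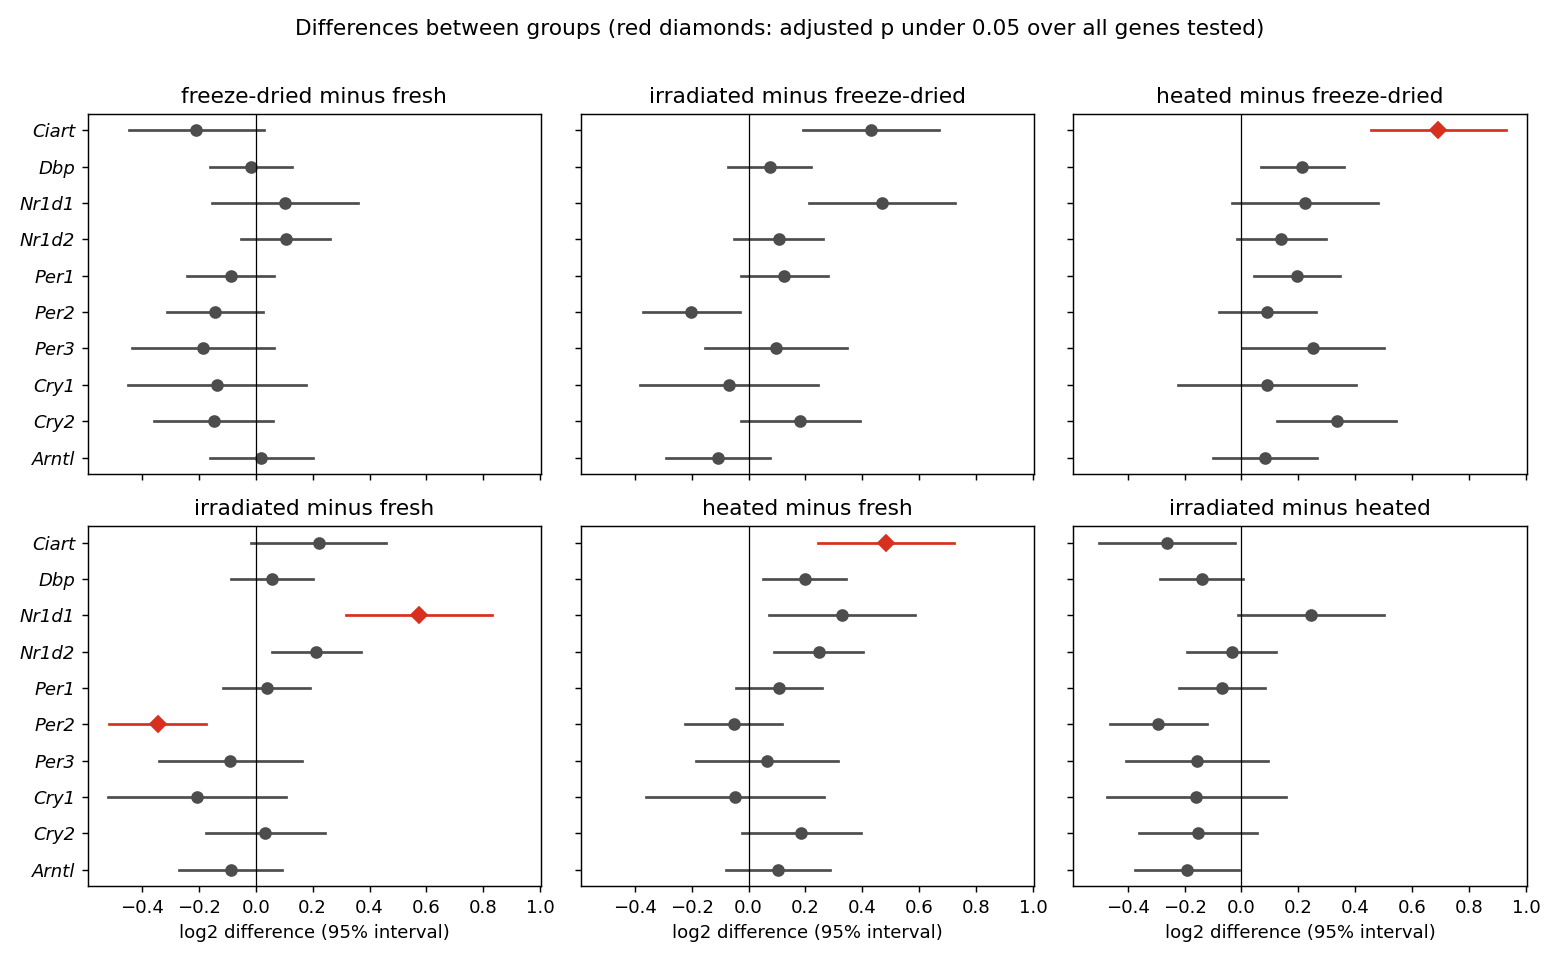
Log2 differences of the 10 clock genes in the 6 comparisons, with 95% intervals; red diamonds passed at an adjusted p under 0.05 over all features tested. All 10 points lie above 0 in heated minus freeze-dried pups, and 9 of 10 lie below 0 in irradiated minus heated pups.

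**Figure D3:**
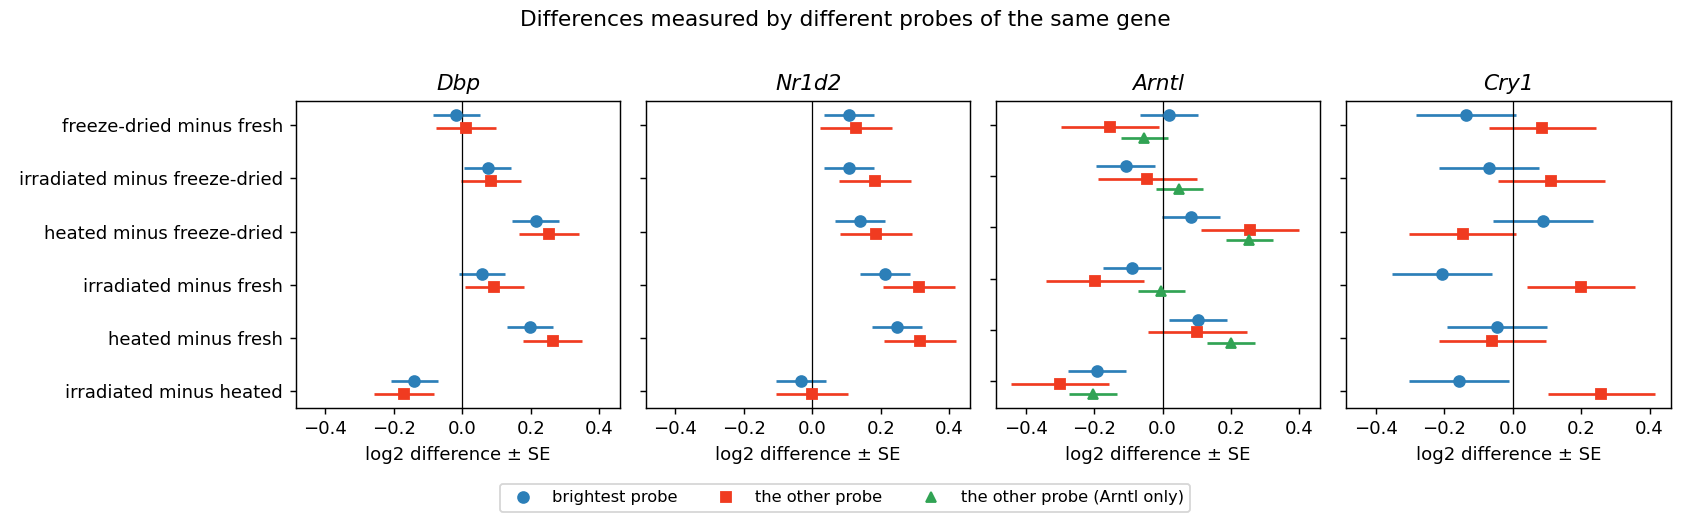
Log2 differences ± SE of the 4 clock genes with more than 1 probe above background, one colour per probe. The probes of Dbp and Nr1d2 lie close together in every comparison, while those of Cry1 lie on opposite sides of 0 in 5 of 6.

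By sign, all 10 genes were higher in heated than in freeze-dried pups, where 55.7% of all features were higher. Their median difference was 0.20, beside 0.03 over all features. Cry1 turned to -0.02 with slide as a block (-0.015) and to -0.03 with its probes averaged, and Arntl to -0.01 with another background correction, and leaving out freeze-dried 3 also turned Cry1 to -0.02. Heated pups were higher than fresh pups in 8 genes (56.7% of all features) with a median of 0.15 beside 0.03. Irradiated pups were higher in 7 genes than freeze-dried pups (55.7% of all) and in 6 than fresh pups (56%), with medians of 0.10 and 0.04. They were higher than heated pups in 1 gene, Nr1d1 (47.1% of all), and lower in 9, with a median of -0.15 beside -0.01. Freeze-dried pups were higher than fresh pups in 3 genes (51.1% of all), with a median of -0.11. Comparisons that share a group of pups are not independent of each other.

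**Figure D4:**
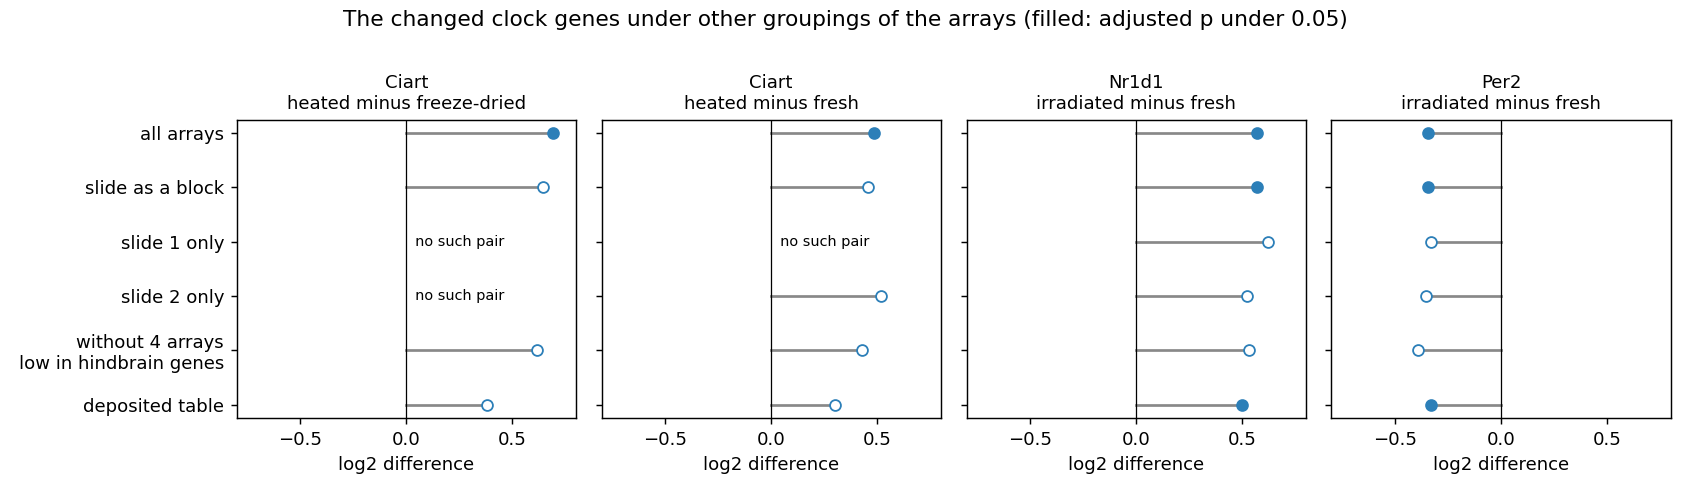
Log2 differences of the 4 called results with all arrays, with slide as a block, within each slide, without 4 arrays low in hindbrain genes and in the deposited value table; filled points have an adjusted p under 0.05, and "no such pair" marks a slide that lacks one of the groups. Every point keeps the sign of the all-array value, from 0.38 to 0.69 for Ciart in heated minus freeze-dried pups, and most are open.

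Between slides, 0 of the 10 genes passed within the fresh group (2.53% of all features did) and 0 within the irradiated group (0.00755%). At an unadjusted p under 0.05 in limma, 2 of the 10 genes, Cry2 and Arntl, differed within the fresh group, beside 20.8% of all features. Within the irradiated group 0 did, beside 10.4%. The test of whether the slide difference itself differed between these groups passed in 0 of the 10 genes, as in 0% of all features (limma; 5.05% of all features and 0 of the 10 genes at an unadjusted p under 0.05). Within a slide 0 of the 10 genes passed in irradiated against fresh pups, on slide 1 (1.54% of all features called) or slide 2 (0.00378%), or in heated against fresh pups on slide 2 (0.0642%). These comparisons rest on 2 fresh pups each.

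Whether the genes varied together from pup to pup was examined over 45 pairs in 16 brains. Ciart followed Dbp (Pearson r = 0.773, permutation p = 0.00048, adjusted p = 0.0135; Spearman rho = 0.691, permutation p = 0.0042, adjusted p = 0.0945). Ciart also followed Per1 (r = 0.751, permutation p = 6e-04, adjusted p = 0.0135; rho = 0.697, permutation p = 0.00322, adjusted p = 0.0945). Without the 2 brains farthest from the Ciart median, r was 0.606 with Dbp and 0.472 with Per1. Within slides Ciart and Dbp gave r = 0.811 on slide 1 (exact permutation p = 0.0155) and 0.776 on slide 2 (exact permutation p = 0.0256), while Ciart and Per1 gave 0.534 and 0.579 (exact permutation p = 0.173 and 0.13). With the group means removed neither relation passed, at r = 0.494 with Dbp and 0.512 with Per1 (permutation, adjusted p = 0.337 each). With quantile normalization Ciart and Dbp still passed (r = 0.749, permutation, adjusted p = 0.0378), and Ciart and Per1 did not (r = 0.521, permutation, adjusted p = 0.237). No other pair passed, and 32 of the 45 r values were positive. Arntl, which in a cycling tissue runs opposite to its targets, gave r = 0.122 with Ciart, 0.229 with Dbp and -0.194 with Nr1d1 (permutation p = 0.658, 0.395 and 0.477). With Per2 its r was 0.598 (permutation p = 0.0151, adjusted p = 0.113), which did not pass. With Per1, Per3 and Nr1d2 its r was -0.086, 0.253 and 0.286, and with Cry1 and Cry2 0.016 and -0.091.

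The balance of targets and activator was described for each brain as the mean centred level of Dbp, Ciart, Nr1d1, Nr1d2 and the 3 period genes minus that of Arntl, with no test. It averaged 0.14 ± 0.06 in irradiated pups (0.135; 0.06 to 0.21), 0.05 ± 0.06 in heated pups (0.045; -0.02 to 0.12), -0.13 ± 0.07 in freeze-dried pups (-0.21 to -0.05) and -0.05 ± 0.23 in fresh pups (-0.36 to 0.16). All irradiated brains lay above 0 and all freeze-dried brains below it, and the fresh brains spanned both, with fresh 1, the brain with muscle signal, the lowest of all 16. The fresh brains divided by slide, at -0.363 and -0.035 on slide 1 and 0.164 and 0.039 on slide 2. Irradiated brains were at 0.061 and 0.119 on slide 1 and 0.206 and 0.154 on slide 2. All freeze-dried brains lay on slide 1 and all heated brains on slide 2, and the part of slide in this balance was not tested. The order of single brains was not firm: with another background correction freeze-dried 2 stood at 0.07 (0.065) against -0.11 here.

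**Figure D5:**
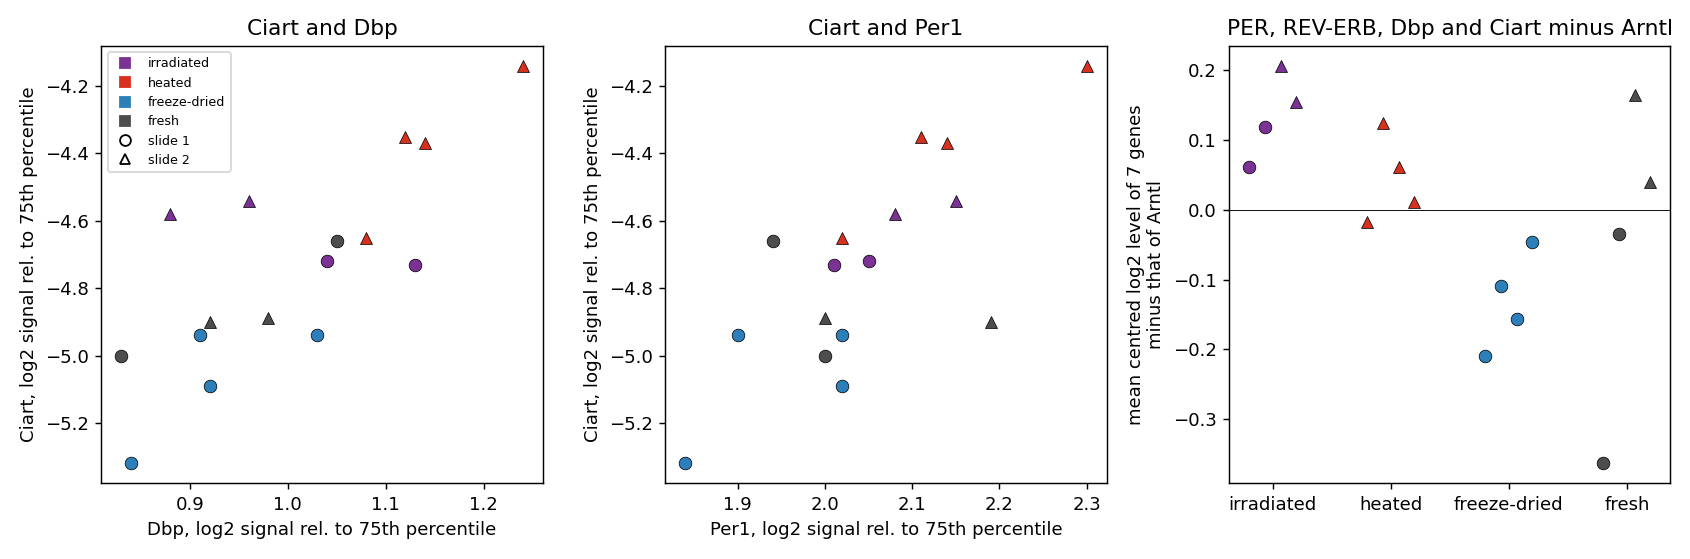
Ciart against Dbp and against Per1 in 16 brains (log2 levels relative to the 75th percentile; colours are groups, circles slide 1, triangles slide 2), and the mean of 7 clock targets minus Arntl by group. The brain highest in Ciart, heated 2 at -4.14, is also the highest in Dbp (1.24) and in Per1 (2.30), and the lowest in Ciart, freeze-dried 1 at -5.32, is the lowest in Per1 (1.84).

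Of 30 other clock genes on a list of clock factors, 29 were on the array and 27 were tested. Of these, 1 was called, Usp2, a ubiquitin-specific protease that acts on clock proteins. Usp2 was at -0.54 ± 0.03 in heated pups, -0.80 ± 0.08 in freeze-dried and -0.89 ± 0.12 in fresh pups, higher by 0.26 (SE 0.07, adjusted p = 0.0484) and 0.35 (SE 0.07, adjusted p = 0.0179). This is 1 of 27 in either comparison, beside 4.11% and 2.9% of all features called, so the share is near that of the array. The first of these calls was lost with slide as a block and with quantile normalization, and the second with no filter on dim probes. In both comparisons 21 of the 27 genes were higher (55.7% and 56.7% of all features), with medians of 0.11 and 0.09 beside 0.03 over all features. All 8 kinases and degradation factors of PER and CRY were higher in heated than in freeze-dried pups (median 0.17, beside 55.7% of all features higher). The 5 partners of PER and CRY were higher in 2 and lower in 3 (median -0.11), and the 6 rhythmic outputs higher in 3 and lower in 3 (median -0.02). The rest tested, 2 activators, 2 E-box repressors, 1 ROR activator and 3 D-box factors, were all higher. Heated and freeze-dried pups lay on different slides. Between irradiated and fresh pups 0 of 27 were called (1.46% of all features), and 17 were higher (56% of all) with a median of 0.03.

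Neuronal activation and glucocorticoids are known to induce Per1 outside the clock, so the genes of these 2 programmes were set beside the clock genes. Of 10 immediate early genes, which neurons induce on activation, 4 were called higher in irradiated than in fresh pups, beside 1.46% of all features. These were Egr1 by 1.37, Nr4a1 by 0.59, Klf4 by 0.54 and Ier2 by 0.36 (limma adjusted p 0.0174 to 0.0377). Egr1 was at 0.93 ± 0.07 in irradiated and -0.44 ± 0.62 in fresh pups, which spread widely. By sign all 10 were higher in irradiated than in fresh pups (median 0.46). All 10 were also higher in freeze-dried than in fresh pups (median 0.42, 0 called beside 0% of all features). In irradiated against freeze-dried pups 9 were higher and 1 lower (median 0.12, 0 called beside 0%). Over all features these medians were 0.02, 0 and 0.02. In heated against freeze-dried pups 2 of the 10 were called lower, among them Ier2 with a log2 difference of -0.35 (adjusted p = 0.017), beside 4.11% of all features. In heated against fresh pups 1 was called higher, Nr4a1 by 0.51 (adjusted p = 0.0277), beside 2.9%. Of 10 genes induced by glucocorticoids or fasting, 4 were called higher in irradiated than in fresh pups, again beside 1.46% of all features. Among them were Txnip by 0.62, Arrdc3 by 0.59 and Klf9 by 0.55 (limma adjusted p 0.00556 to 0.0303). By sign 6 of the 10 were higher and 4 lower in this comparison, with a median of 0.05 beside 0.02 over all features. In heated against freeze-dried pups Klf9 (0.48, adjusted p = 0.0281) and Pdk4 (0.42, adjusted p = 0.0169), 2 of the 10, were called higher, beside 4.11% of all features. In heated against fresh pups 3 of the 10 were called higher, among them Klf9 (0.63) and Pdk4 (0.37), beside 2.9%. Heated and freeze-dried pups lay on different slides. Between them 0 features were called with slide as a block, and 12 without the 4 arrays low in hindbrain genes. Between irradiated and fresh pups these settings gave 666 and 0 features, and between heated and fresh pups 361 and 0. The part of either programme in the clock gene levels was not tested.

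Some cell type markers moved with the same comparisons, in which 4.11% (heated against freeze-dried), 2.9% (heated against fresh) and 1.46% (irradiated against fresh) of all features were called. Of 10 markers of the suprachiasmatic nucleus, 1 was higher in heated than in freeze-dried pups (Prokr2, 0.41, adjusted p = 0.0217) and 1 in heated than in fresh pups (the neuropeptide Vip, 0.90, adjusted p = 0.0263). The summed level of these 10 was 7.02 to 7.30 times the 75th percentile in irradiated, 6.92 to 7.32 in heated, 6.47 to 7.08 in freeze-dried and 6.24 to 7.36 in fresh brains, so heated and freeze-dried brains overlapped. Vip was dim, at -4.85 to -4.57 in heated and -6.12 to -5.29 in fresh pups, the lowest being fresh 2, 1 of the 4 low in hindbrain genes. Of 5 astrocyte markers 2 were higher in heated than in freeze-dried pups, Gfap by 0.79 and Slc1a2 by 0.44 (adjusted p = 0.0366 and 0.0373), with summed levels of 21.2 to 24.4 against 19.1 to 22.7. Gfap was also higher in heated than in fresh pups (1.02, adjusted p = 0.0141), whose sums were 18.1 to 20.5. Of 5 neuronal markers 1 was higher (Syt1, 0.29, adjusted p = 0.0248), with 116 to 125 against 109 to 117 over the 4 with a value on every array. Of 5 pineal and retinal markers tested 1 was lower (Otx2, -0.42, adjusted p = 0.00997), with 3.11 to 3.33 against 3.99 to 4.42. In irradiated against fresh pups the potassium channel gene Kcnj13 was higher, 1 of 5 choroid plexus markers (0.63, adjusted p = 0.0481; summed levels 31.7 to 44.9 against 28.9 to 38.1). Heated and freeze-dried pups lay on different slides, and with slide as a block 0 features were called between them. The neuronal sum of fresh brains was 113 and 111 on slide 1 and 120 and 121 on slide 2. That of irradiated brains was 112 and 113 on slide 1 and 112 and 112 on slide 2. Without the 4 arrays low in hindbrain genes 0 features were called in either comparison with fresh pups. The part of slide or of these cell types in the clock gene levels was not tested here.

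The genes whose levels ran most closely with a changed clock gene over the 16 brains, among 15964 named genes, were found by Pearson r. With Ciart these were Slitrk1 (r = 0.904), Iqca (0.89) and Doc2b (0.889). With Nr1d1 they were Elmo1 (0.909), Prmt6 (0.884) and Gm10791 (0.871), and with Per2 Dnase1l2 (0.903), Rab21 (0.898) and Tnfrsf25 (0.889). Values of this size are the top of a ranking over many genes on arrays that share groups and slides, and no test is attached to them.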

How the data were processed

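Brain RNA of 16 neonates was hybridised to 16 one-colour arrays. Per the submitters' processing notes, Agilent Feature Extraction 11.0.1.1 was the authors' software for the scans; the deposited scanner files hold intensity (background-corrected processed signal, median spot and background signals) per spot without scaling across arrays. A table of processed log2 values, also deposited, covers 31313 probes; its making is not given in the sources used here, and it served as an alternative only. Array annotation named accessions, which were matched to RefSeq symbols.

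From the processed signal, log2 values were taken, spots of a probe averaged after 75 values marked as non-uniform spots were left out, and each array's 75th percentile subtracted. Probes entered the tests (34261 of them) if the 4 arrays of some group all showed them well above background. Genes were represented by their brightest probe (26477 features, 15994 with a symbol). No spot was saturated. With 4 arrays a group, the number of arrays limits the precision. Limma 3.58.1 in R 4.3.3 was fitted with 4 group means and 12 residual degrees of freedom and was tested on simulated data. Correlations used 1e+05 permutations, or all 40320 within a slide.

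The 10 genes, the other lists and the comparisons were chosen with earlier results of these data known. The rule names all 10 genes, up to 4 called genes of each other list, and the 3 genes closest to each called clock gene. Alternatives covered the slide, replicate numbers, background correction, scaling, filter, probes of a gene, source of values, samples in the fit, arrays left out and outlier spots. The files hold no mean spot signal, so the other background correction (normexp, offset 50) used median signals; this setting and the further removal of population outlier spots were added after the data had been seen. Promoter windows and gene names come from RefSeq, GRCm38.p6.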

Additional observations from a re-analysis of the deposited data

Results flagged for a closer look

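In the fresh group, Cry1 in fresh 3 stood at -3.42, below the other 3 pups at -3.32, -3.31 and -3.30, and the gap filled 0.851 of the group's range. In the heated group, Arntl in heated 3 stood at 0.27, below the other 3 pups at 0.30 each, with a gap of 0.832 of the range. Both exceed the critical value of Dixon's test for 4 samples, 0.829. Of 44 groups of 4 values examined, 2 exceeded it, and chance alone gives about 1 in 20.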

How the results depend on the processing

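The 4 called differences of clock genes kept their sign under all 12 other settings. They passed under 9 of these for Ciart in heated against freeze-dried pups, 5 for Ciart in heated against fresh pups, 9 for Nr1d1 and 6 for Per2 in irradiated against fresh pups. The cause of the lost calls was not tested, except that fewer arrays were fitted where some were left out.

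In heated against freeze-dried pups (1 clock gene called, 1087 features in all), the number of clock genes was 0 with slide as a block (0 features), in the deposited table (0) and without the 4 arrays low in hindbrain genes (12). It was 2, Ciart and Cry2, with the replicate block, with normexp and with only the groups compared (2312 features), and no filter on dim probes gave 654 features. In irradiated against fresh pups (2 and 387), it was 0 with normexp (208), with no filter (87) and without those 4 arrays (0), and 1, Nr1d1, with median scaling, with probes averaged and with only the groups compared (65). Slide as a block gave 666 features there and the deposited values gave 939. In heated against fresh pups (1 and 767), it was 0 with slide as a block (361), normexp, quantile normalization, no filter (224), the deposited table (312), only the groups compared (36) and without the 4 arrays (0). In irradiated against heated pups (0 and 288), it stayed 0, with 192 features under the slide block, 187 under the replicate block, 109 with normexp, 89 with no filter, 112 in the deposited table, 723 with only the groups compared and 6 without the 4 arrays. Slide as a block gave 2 features in freeze-dried against fresh pups.

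With each array left out in turn, the clock genes called ranged from 1 to 2 in heated against freeze-dried pups (221 to 1679 features), 0 to 2 in irradiated against fresh pups (54 to 533), 0 to 1 in heated against fresh pups (223 to 1169) and 0 to 1 in irradiated against heated pups (47 to 397). The other clock genes called numbered 0, against 1 with the settings reported, in heated against freeze-dried pups with slide as a block and with quantile normalization, and in heated against fresh pups with no filter.

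The replicate numbers showed no clear pairing of the samples. Deviations from group means of same-numbered arrays correlated at -0.387 to 0.383 (median 0.0285, 24 pairs), and those of other arrays at -0.508 to 0.553 (median -0.019, 72 pairs). With a spread this wide a weak pairing would not show. With the replicate block the Cry2 difference of 0.34 (0.335) between heated and freeze-dried pups had an adjusted p of 0.0431 in limma. Ciart and Per1 gave r = 0.512 with group means removed, 0.534 and 0.579 within slides 1 and 2 and 0.521 with quantile normalization, none of which passed, and Ciart and Dbp gave 0.494 with group means removed, which did not pass. Under normexp the balance of targets and Arntl was 0.116 in irradiated 3 and 0.229 in heated 4, and -0.105, 0.065 and -0.364 in freeze-dried 1, 2 and 3. With 4 arrays a group, small differences are limited by the number of arrays; the second probes of Ciart, Per2 and Per3 are limited by signal over background.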
